A study of Mus musculus with 6 samples.

Results

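The cytosolic ribosomal protein genes were followed in 266.6 cells, a mouse pancreatic acinar tumour line, with and without exposure to medium conditioned by cancer-associated fibroblasts (CAF_CM). They were taken by symbol: every row of the deposited gene table whose name begins with Rpl or Rps followed by a number, with an optional paralog letter, together with Rpsa, Rplp0, Rplp1 and Rplp2, leaving out rows marked as pseudogenes in their name and the Rps6k kinases. This gave 85 of the 20596 rows that carry a gene symbol, 34 for proteins of the small subunit and 51 for proteins of the large subunit. Of the 85, 4 (Rpl32l, Rpl6l, Rps3a2 and Rps3a3) are annotated as processed pseudogenes in GENCODE although their symbols do not say so. All 85 passed the filter on low values, and 79 had a control mean of at least 1000 normalized counts.

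Total RNA was sequenced in 6 libraries, 3 of control cells and 3 of cells kept in the conditioned medium for up to 40 days. The labels name no other treatment and no genotype, and they do not give the time in culture of the controls, so the medium and the time in culture cannot be told apart. Nothing in the labels says that the 3 libraries of a group came from separate cultures, so p-values measure the spread between libraries, which may be technical. The study as a whole asked how fibroblasts change the identity of acinar cells.

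A ribosome is built from ribosomal RNA and a fixed set of proteins, each encoded by its own gene and most of them needed in equal numbers. Ribosomal protein mRNAs are among the most abundant in growing cells. In mammals most of these mRNAs begin with a C followed by a run of pyrimidines, the 5′ terminal oligopyrimidine (TOP) motif, through which mTORC1 and LARP1 control their translation. The acinar cell of the pancreas is known for a very high rate of protein synthesis, since it secretes digestive enzymes.

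The sequences around the listed start sites of the genes whose change held under every alternative analysis are given where they hold a pyrimidine tract. They come from RefSeq on GRCm38.p6, are written 5′ to 3′ on the strand of the gene, and carry the longest tract in capitals. Rps27 is added as the partner of its paralog Rps27l.
Rpsa, chr9:120127779-120127808, plus strand: ccgcccgtCCTTTCgcgctacccggggacg
Rps2, chr17:24720083-24720112, plus strand: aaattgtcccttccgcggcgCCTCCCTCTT
Rpl35a, chr16:33056469-33056498, plus strand: ggggcttgCCTTCCTCTTTCCgccatcttg
Rpl10a, chr17:28328574-28328603, plus strand: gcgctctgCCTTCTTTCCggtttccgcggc
Rps24, chr14:24490698-24490727, plus strand: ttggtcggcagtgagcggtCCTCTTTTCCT
Rps27l, chr9:66946066-66946095, plus strand: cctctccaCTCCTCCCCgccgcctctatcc
Rps27, chr3:90213629-90213658, minus strand: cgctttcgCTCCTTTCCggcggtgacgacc
The seventh gene of this kind, Rplp0, had no such tract in its window. A tract was defined as a C followed by C or T without a break, at least 6 bases in all. It was searched on the sense strand between 20 bases before and 50 bases after a listed start. Counted from that start, the first base of the longest tract was at 22 in Rpsa, 41 in Rps2, 25 in Rpl35a and 18 in Rpl10a. It was at 40 in Rps24 and, before the start, at -12 in Rps27l and -2 in Rps27. In Rps2 and Rps27l a shorter tract, printed in small letters, lies before the longest one. In Rps2 and Rps24 the longest tract ends at the edge of the searched window and may run on past it. Whether a tract begins the mRNA was not tested. RefSeq windows were matched for 61 members, and 52 of them (85.2%) held a tract, against 46.8% of 10719 other genes tested. The longest tract had a median length of 10 bases in the members and 5 in the other genes.

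Across the whole table the values are normalized counts, reads divided by 1 factor per library, and 16169 genes were tested with limma and Benjamini-Hochberg adjustment at a threshold of 0.05. Of these, 2953 (18.3%) rose in CAF_CM and 2602 (16.1%) fell, or 2231 and 3179 with library totals as the scaling and 2329 and 1918 with scaling to the member median. Between 18622370 and 21002226 reads were counted per library. The edgeR common dispersion of each group gave a coefficient of variation of 2.21% among controls and 8.26% among CAF_CM libraries, a spread that may be technical. The summed level of the 9 acinar cell markers with a row was 65353 to 67880 normalized counts in control and 33803 to 40259 in CAF_CM, and 6 of the 9 fell. Of 10 fibroblast markers 6 had a row, 1 rose and 1 fell, with a summed level of 3427 to 3614 in control and 3073 to 3516 in CAF_CM, while Col3a1, Lum, Fap and Pdpn had no row. Immune, endothelial and islet markers summed to at most 114, 226 and 29 normalized counts in any library. Only 1, 2 and 1 of them passed the filter on low values, and none of these was called. The part of these marker shifts in the ribosomal protein values was not tested.

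As a family, the ribosomal protein genes stayed close to their control level in CAF_CM, with 7 members higher and 12 lower. These are 8.24% and 14.1% of the 85, beside 18.3% and 16.1% of all genes tested, so neither share exceeded the background in the main analysis. Under some of the alternatives given below a share did exceed it. The median log2 fold change was -0.0018 over the members and 0.0046 over all genes tested. Above 0 there were 42 members and below 0 there were 43. The change was under 0.1 on the log2 scale in 55 members, under 0.2 in 72 and under 0.3 in 81. Over all members the median absolute log2 fold change was 0.079, against 0.19 over all genes tested.

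For 59 of the 66 members that were not called, the 95% interval of the fold change lay within 1.2-fold in either direction, a bound on the size of any change at 3 libraries per group. In the other 7 the interval reached past 1.2-fold. The groups did not overlap in 28 members (32.9%), against 47.7% of all genes tested. Among small subunit genes 2 rose and 5 fell, with a median log2 fold change of -0.03, and among large subunit genes 5 rose and 7 fell, with a median of 0.005.

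**Figure D1:**
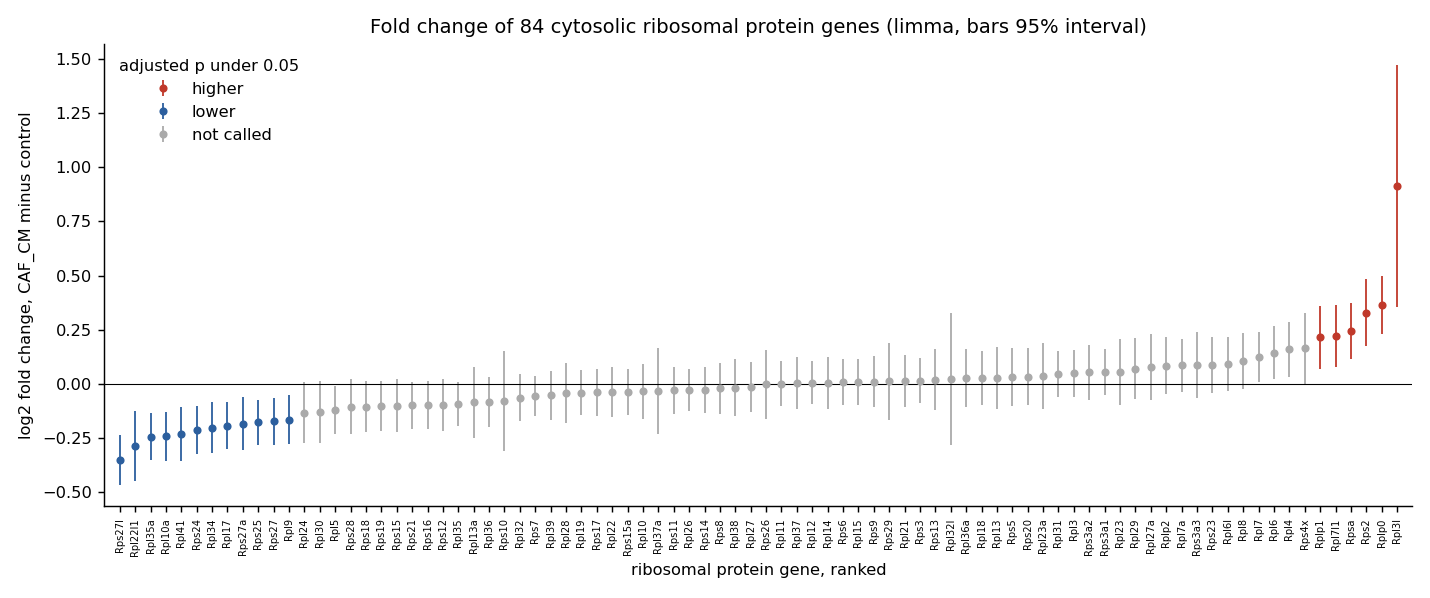
Log2 fold change of CAF_CM against control (y axis, log2 of value plus 1) for 84 of the 85 ribosomal protein genes in rank order (x axis), with bars for the 95% interval and colours for the limma call. The genes that rose and fell sit at the ends of a flat curve, and Rpl3l stands apart with a wide interval.

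The counts moved with single libraries and with scaling, as did the background. Without control replicate 1, 3 members were higher (all genes 11.6%) and 6 lower (10.3%). Without control replicate 2 these were 4 (12.2%) and 7 (10.6%), and without control replicate 3 they were 4 (12.9%) and 9 (10.7%). Without CAF_CM replicate 1, 8 members were higher (all genes 21.7%) and 21 lower (18.2%). Without CAF_CM replicate 2 these were 13 (19.2%) and 11 (17.2%), and without CAF_CM replicate 3 they were 4 (14.3%) and 12 (12.9%). With library totals as the scaling 4 were higher (all genes 13.8%) and 17 lower (19.7%). With scaling to the median of the members themselves 10 were higher and 10 lower, beside 2329 and 1918 of the 16169 genes tested. The median log2 fold change took either sign under these alternatives, from -0.05 with library totals to 0.08 after correction for length and GC content.

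The members moved up and down together between libraries of the same group. Relative to the control mean, the median log2 difference of the members in control was 0.035, -0.014 and -0.023 for replicates 1, 2 and 3. The same median for the CAF_CM replicates was 0.066, -0.095 and -0.012, on both sides of the controls. CAF_CM replicate 1 was the highest of its group for 72 of 85 members and CAF_CM replicate 2 the lowest for 77. In control, replicate 1 was the highest for 73. The median coefficient of variation of a member was 2.67% in control and 6.08% in CAF_CM.

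**Figure D2:**
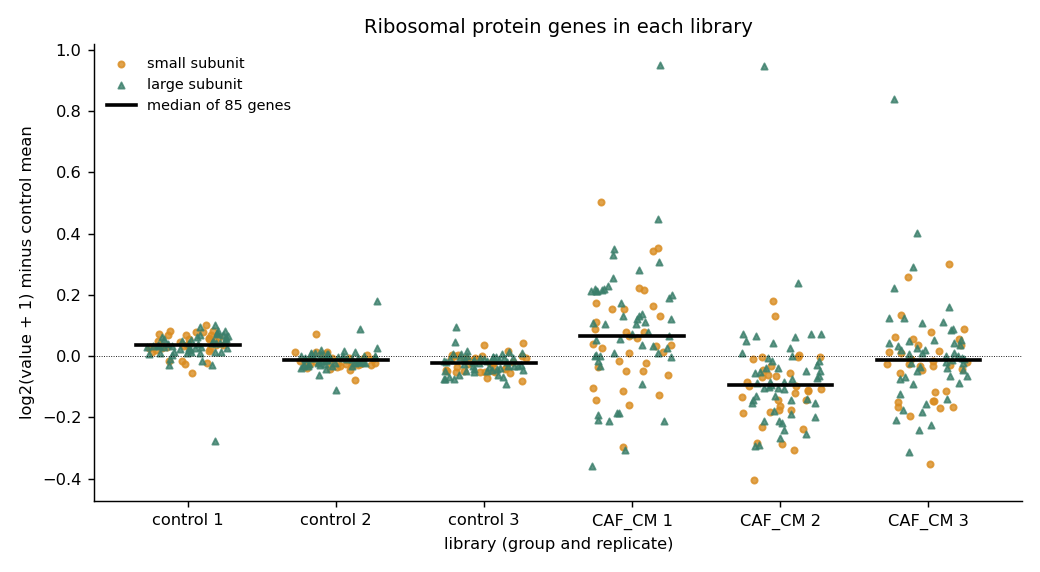
Log2 difference from the control mean (y axis) for every ribosomal protein gene in each of the 6 libraries (x axis), with small and large subunit genes in different colours and shapes and a bar at the median of each library. The CAF_CM medians lie at 0.066, -0.095 and -0.012, on both sides of the controls.

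Ribosomal protein genes held 3.42% ± 0.095 (SD, n = 3) of all normalized counts in control and 3.36% ± 0.18 (SD, n = 3) in CAF_CM. The libraries ranged from 3.34% to 3.52% in control and from 3.18% to 3.54% in CAF_CM, so the control range lay inside that of CAF_CM. In these bulk samples a share of counts shows neither the number of cells nor the RNA per cell, so these cannot be told apart. The summed large subunit level over the summed small subunit level was 1.28, 1.28 and 1.27 in control and 1.32, 1.32 and 1.32 in CAF_CM, without overlap. Leaving out the 3 stalk genes and Rps2, the ratio was at most 1.177 in control and at least 1.193 in CAF_CM.

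Per kilobase of the 1 transcript taken for each gene, 3 members were highest in control. They were Rps15 at 22423 ± 434, Rpl8 at 22021 ± 740 and Rpl41 at 20644 ± 646 normalized counts per kilobase (SD, n = 3). This order depends on the transcript: the one taken for Rps24 has 1613 bases with a coding length of 399, that for Rps15 500 with 435. Rps15 and Rpl8 did not differ beyond their spread. In CAF_CM Rps15, Rpl8 and Rpl41 stood at 20955 ± 1438, 23703 ± 1703 and 17604 ± 1195 normalized counts per kilobase. Rps15, a small subunit protein, had a log2 fold change of -0.10 and Rpl8, a large subunit protein near the peptidyl transferase centre, one of 0.10. Neither was called in the main analysis. Rps15 was called lower without CAF_CM replicate 1 (limma adjusted p = 0.0037). Rpl8 was called higher without CAF_CM replicate 2 (0.046) and after correction for length and GC content (0.00512). Across all 85 members the control mean ran from 10.8 to 25390 normalized counts, and the Pearson r between the log2 levels of both groups was 0.996 over the 85 genes, a description across genes of the same libraries.

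The largest rise among abundant members was in the P stalk, the flexible arm of the large subunit that recruits and activates the GTPases of translation. Rplp0, the base of the stalk, had 25894, 25567 and 24705 normalized counts in control and 34649, 29948 and 33559 in CAF_CM. Every CAF_CM library lay above every control library, and the fold change was 1.29 (log2 0.36, SE 0.061, limma adjusted p = 0.00106). It stayed called under all 20 alternatives, with adjusted p between 5.47e-07 and 0.0105.

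Rplp1, which binds Rplp0 as a dimer with Rplp2, had 10360, 10055 and 9788 normalized counts in control and 12825, 10577 and 11739 in CAF_CM. The groups did not overlap, although CAF_CM replicate 2 came close to control replicate 1, and the log2 fold change was 0.21 (SE 0.065, limma adjusted p = 0.0258). Rplp2 had 9335, 8870 and 8845 normalized counts in control and 10449, 8914 and 9355 in CAF_CM, which overlapped, with a log2 fold change of 0.08 and an adjusted p of 0.312 in limma. The 3 stalk genes together held 0.230% ± 0.0074 (SD, n = 3) of normalized counts in control and 0.271% ± 0.021 (SD, n = 3) in CAF_CM. The call of Rplp1 was lost with library totals as the scaling (limma adjusted p = 0.0637) and without control replicates 1, 2 or 3 (0.0592, 0.0886 and 0.106) or CAF_CM replicate 3 (0.0693), and Rplp2 was called after correction for length and GC content (0.00653).

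At the mRNA channel of the small subunit, Rps2 and Rpsa rose. Rps2, a protein at the mRNA entry site, had 11901, 11619 and 11589 normalized counts in control and 16596, 13254 and 14430 in CAF_CM. All 3 CAF_CM libraries were above all controls, and replicate 1 was the highest, with a fold change of 1.26 (log2 0.33, SE 0.071, limma adjusted p = 0.00452). Rpsa, also known as the laminin receptor precursor and placed near the mRNA exit, had 14734, 14547 and 13992 normalized counts in control and 18305, 15782 and 17248 in CAF_CM.

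The Rpsa groups did not overlap either, with a fold change of 1.18 (log2 0.24, SE 0.059, limma adjusted p = 0.0081). Both genes stayed called under all 20 alternatives, with adjusted p of at most 0.0272 for Rps2 and 0.0499 for Rpsa, the second of these without control replicate 3. Of the 7 members at the mRNA entry and exit, 2 rose (28.6%, beside 18.3% of all genes) and none fell, and Rps3, a protein of the entry site, had a log2 fold change of 0.01. Rack1, a scaffold near the exit whose symbol keeps it out of the family rule, had 21157, 20375 and 20257 normalized counts in control and 23780, 21783 and 22267 in CAF_CM, a log2 fold change of 0.13 that was not called (limma adjusted p = 0.0652). Rack1 was called higher with separate weights for the groups (0.0490), after correction for length and GC content (0.00226), with scaling to the member median (0.0418) and without CAF_CM replicate 2 (0.0270).

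Just outside the threshold were Rpl4, which lines the exit tunnel, at a log2 fold change of 0.16 (limma adjusted p = 0.0547), and Rpl6 at 0.14 (limma adjusted p = 0.0640). In both genes every CAF_CM library was above every control library. Rpl4 was called higher under 7 of the 20 alternatives, among them edgeR with TMM (adjusted p = 0.0479), limma without CAF_CM replicate 1 (0.0461) and limma without CAF_CM replicate 2 (0.0126). Rpl6 was called higher under 4, among them limma without CAF_CM replicate 2 (0.0175). Just inside the threshold was Rpl9, a large subunit protein, with a log2 fold change of -0.17 (limma adjusted p = 0.0272).

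The 4 members that are paralogs of a core ribosomal protein split, with 2 higher and 2 lower. Rps27l, a close copy of Rps27 and a known p53 target gene, had 2120, 2015 and 1985 normalized counts in control and 1662, 1541 and 1598 in CAF_CM. All CAF_CM libraries were below all controls, with a log2 fold change of -0.35 (SE 0.052, limma adjusted p = 5.13e-04), and the call held under all 20 alternatives. Rps27 itself also fell, by 0.17 on the log2 scale (limma adjusted p = 0.0185), from 4461, 4223 and 4157 to 3872, 3644 and 3870 normalized counts. Rps27l stood at 47.5%, 47.7% and 47.7% of Rps27 in control and at 42.9%, 42.3% and 41.3% in CAF_CM. These ratios did not overlap, and an exact two-sided permutation test gave p = 0.1, the smallest that 3 against 3 allows. The call of Rps27 was lost without control replicate 1 (limma adjusted p = 0.104) and control replicate 2 (0.0642).

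Rpl22l1, the paralog of Rpl22, had 450, 428 and 425 normalized counts in control and 339, 381 and 349 in CAF_CM. It was lower in every CAF_CM library, with a log2 fold change of -0.29 (SE 0.074, limma adjusted p = 0.0118), while Rpl22 had a log2 fold change of -0.04 and was not called. Its level per Rpl22 was 7.55%, 7.42% and 7.49% in control and 5.74%, 7.19% and 6.06% in CAF_CM (exact two-sided permutation p = 0.1, the smallest possible). The call was lost without control replicate 1 (limma adjusted p = 0.0628) and with scaling to the member median (0.0536).

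Rpl3l, the paralog of Rpl3 known from striated muscle, was the lowest member, at 8.67, 12.2 and 11.5 normalized counts in control and 21.6, 21.5 and 19.9 in CAF_CM. The groups did not overlap, and the log2 fold change of 0.91 (SE 0.26, limma adjusted p = 0.0172) had the widest interval among called members, 0.35 to 1.47. At this level the log2(value + 1) scale understates a change. Rpl3l was not called by DESeq2 (adjusted p = 0.107) or by limma without control replicate 1 (0.0708). Control replicate 1 was below the 10 normalized counts of the filter, so Rpl3l passed it only with its CAF_CM libraries counted. Under the stricter filter on low values among the alternatives Rpl3l dropped out, and 6 members were higher. Rpl3l stood at 0.0624%, 0.0891% and 0.0837% of Rpl3 in control and 0.143%, 0.156% and 0.143% in CAF_CM (exact two-sided permutation p = 0.1, the smallest possible).

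Rpl7l1, a paralog of Rpl7 with a role in ribosome assembly, had 2542, 2439 and 2487 normalized counts in control and 3082, 2602 and 3043 in CAF_CM. The groups did not overlap, with a log2 fold change of 0.22 (SE 0.064, limma adjusted p = 0.0211). Its ratio to Rpl7 overlapped between groups, at 18.5%, 18.1% and 18.7% in control and 19.7%, 18.6% and 20.8% in CAF_CM (exact two-sided permutation p = 0.2). The call was lost without control replicates 1, 2 or 3 (limma adjusted p = 0.0576, 0.0885 and 0.0708), without CAF_CM replicate 3 (0.0835) and with library totals (0.0550). Rpl36al, the copy of Rpl36a outside the symbol rule, had a log2 fold change of -0.38 and was not called (limma adjusted p = 0.0742). It was called lower with library totals as the scaling (0.0483) and without control replicate 1 (0.043).

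The falls among core members were small and spread over both subunits. Rpl35a, a large subunit protein mutated in some families with Diamond-Blackfan anaemia, had 2228, 2126 and 2169 normalized counts in control and 1902, 1774 and 1839 in CAF_CM, without overlap (log2 fold change -0.24, SE 0.049, limma adjusted p = 0.00324). Rpl10a, a large subunit protein of the L1 stalk, had 9240, 8475 and 8467 normalized counts in control and 7529, 7131 and 7467 in CAF_CM, without overlap (log2 fold change -0.24, SE 0.051, limma adjusted p = 0.00394). Rps24, a small subunit protein also mutated in Diamond-Blackfan anaemia, had 13825, 13758 and 14340 normalized counts in control and 12522, 11454 and 12211 in CAF_CM, again without overlap (log2 fold change -0.21, SE 0.050, limma adjusted p = 0.00713). These 3 falls held under all 20 alternatives, with adjusted p of at most 0.0264, 0.0306 and 0.0488.

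Rpl41 encodes the shortest protein of the family, with a coding length of 75 bases. It had 11477, 11385 and 10828 normalized counts in control and 9084, 9332 and 10313 in CAF_CM, without overlap (log2 fold change -0.23, SE 0.056, limma adjusted p = 0.00845). Rps27a, which is translated as a fusion with ubiquitin, had 11999, 12583 and 12870 normalized counts in control and 11623, 10263 and 11116 in CAF_CM, also without overlap (log2 fold change -0.18, SE 0.056, limma adjusted p = 0.0253). The call of Rps27a was lost without control replicate 2 (0.103), control replicate 3 (0.116), CAF_CM replicate 2 (0.0511) or CAF_CM replicate 3 (0.0504), and that of Rpl41 without control replicate 2 (0.0503).

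The remaining falls were Rpl34 (log2 fold change -0.20), Rpl17 (-0.19), Rps25 (-0.18) and Rpl9 (-0.17). Rpl17 lines the exit of the peptide tunnel, where 1 of 9 members fell (11.1%, beside 16.1% of all genes) and none rose, and Rps25 is known for its part in initiation at internal ribosome entry sites. Rps25 had 6271, 6071 and 6125 normalized counts in control and 5641, 5219 and 5479 in CAF_CM, and the groups did not overlap. Without control replicate 1 the calls of Rpl34, Rpl17, Rps25 and Rpl9 were lost (limma adjusted p = 0.0862, 0.0618, 0.0711 and 0.130). Those of Rps25 and Rpl9 were also lost without control replicate 2 (0.0530 and 0.0743) and without control replicate 3 (0.0550 and 0.0746). With scaling to the member median the adjusted p of Rpl9 was 0.0863.

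Rpl5 and Rpl11, which with the 5S ribosomal RNA bind MDM2 when ribosome assembly fails, were not called. Rpl5 had 13091, 13153 and 12887 normalized counts in control and 11482, 11807 and 12723 in CAF_CM, without overlap (log2 fold change -0.12, limma adjusted p = 0.0859). It was called with library totals as the scaling (0.0255) and without CAF_CM replicate 3 (0.0314). Rpl11 had 12063, 11547 and 11578 normalized counts in control and 12167, 11331 and 11719 in CAF_CM, which overlapped, and its 95% interval on the log2 scale ran from -0.10 to 0.11. Of 19 members on a list of genes mutated in Diamond-Blackfan anaemia, 3 fell (Rpl35a, Rps24 and Rps27) and none rose. The 15.8% lower is close to the 16.1% of all genes tested, and the list may not hold every such gene.

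**Figure D3:**
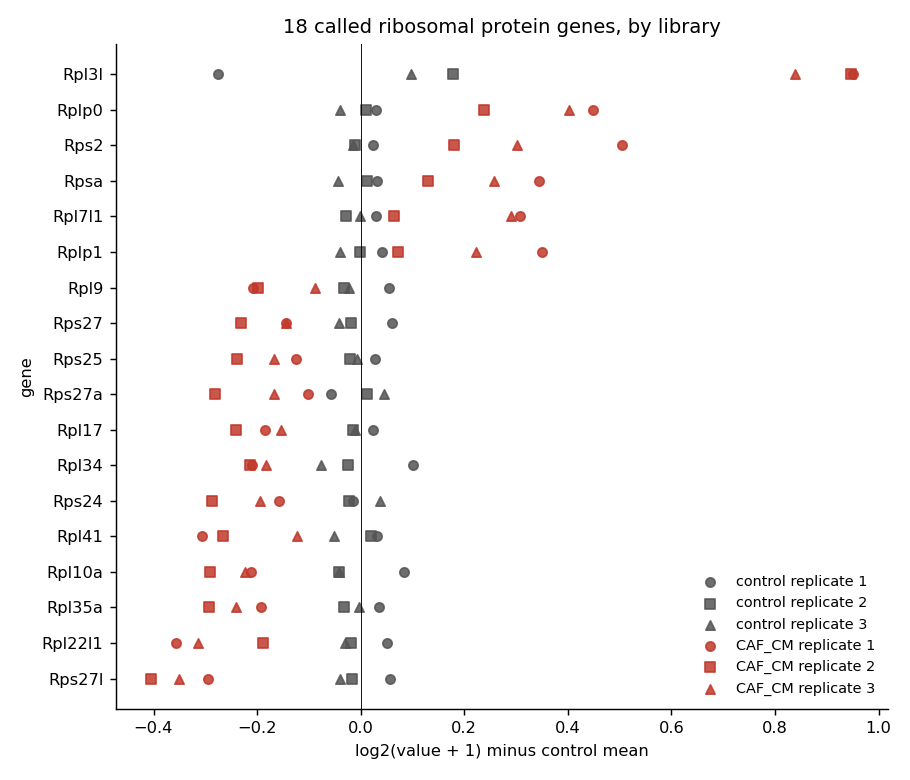
Log2 difference from the control mean (x axis) in each of the 6 libraries for 18 of the 19 called ribosomal protein genes (y axis), control and CAF_CM in different colours and replicates in different shapes. In each of these genes the CAF_CM points lie to one side of the control points, and CAF_CM replicate 2 is the nearest to control in most genes that rose.

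The fold change of a member was larger where its coding sequence was longer. The 81 coding members were split by length into 3 classes of 27. In the shortest class (75 to 399 bases) 1 rose and 8 fell, with a median log2 fold change of -0.08. In the middle class (405 to 576 bases) 1 rose and 3 fell, with a median of -0.03. In the longest (582 to 1257 bases) 5 rose and 1 fell, with a median of 0.03. Over all genes tested 18.3% rose and 16.1% fell. The 5 of 27 that rose in the longest class are close to that share. The 8 of 27 that fell in the shortest class are above it, and the other counts are below. The median coding length was 879 bases among members that rose and 370.5 among those that fell, against 456 over the members and 1401 over all genes tested.

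Spearman's rho between coding length and log2 fold change was 0.48 over the 81 genes, and 0.13 over the 12858 genes tested with a coding length, as a description over genes that share their libraries. In single CAF_CM libraries, set against the control mean, it was 0.36, 0.52 and 0.56 in replicates 1, 2 and 3. When each library was corrected for transcript length and GC content, 21 members were higher and 7 lower, beside 22.4% and 15.9% of all genes, and the median log2 fold change was 0.08 over the members and 0.03 over all genes. All 7 members that rose were still called higher, and 14 more joined them, among them Rpl3, Rpl4, Rpl8 and Rplp2. Of the 12 that fell, 6 were still called lower, while Rpl22l1, Rpl34, Rpl41, Rpl9, Rps27 and Rps27a were not, with adjusted p between 0.0656 for Rps27a and 0.176 for Rps27. Rps15a was called lower after this correction only. In the 3 length classes the median log2 fold change after the correction was 0.02, 0.06 and 0.14 from the shortest to the longest, so the order of the classes was the same as without it. What sets the relation to length was not tested.

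**Figure D4:**
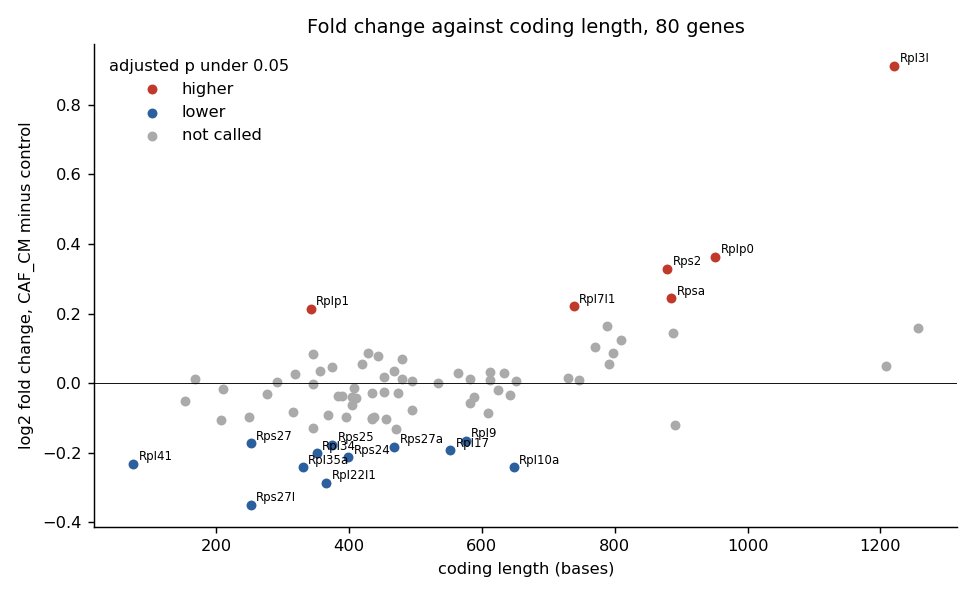
Log2 fold change of CAF_CM against control (y axis) against coding length in bases (x axis, linear scale) for 80 of the 81 coding ribosomal protein genes, coloured by call. Genes that fell lie mostly among the short ones (median 370.5 bases) and genes that rose among the long ones (median 879 bases).

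Ribosomal protein genes have many processed pseudogenes, and reads can be split between a gene and its copies, so single values are uncertain where the copies take a large share. In control, 203 rows named as pseudogenes of a member held 1.17% ± 0.035 (SD, n = 3) of all normalized counts, and in CAF_CM 1.12% ± 0.061 (SD, n = 3). Pseudogene rows took 93.6% of the summed level of gene and copies for Rps10, 91.2% for Rpl17, 88.5% for Rpl35a, 57.1% for Rps2, 56.4% for Rpl34, 41.3% for Rps27a and 38.1% for Rpsa, and under 1% for Rplp0. With these rows added to their gene, 7 members were again higher and 12 lower. Rps2 then had a log2 fold change of 0.28 (limma adjusted p = 0.0150), Rpl35a one of -0.17 (0.0222) and Rpl17 one of -0.19 (0.00670).

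The pyrimidine tract, searched from 20 bases before to 50 after a listed start, was present in 3 of 5 matched members that rose, 10 of 10 that fell and 39 of 46 that were not called. Other motifs were searched in the whole RefSeq window, 250 bases before to 50 after a listed start. CCGGAAG, the core bound by ETS factors such as GABP, was found on either strand in 25 of 61 member windows (41.0%) and in 19.5% of the other genes tested. GGGCGG, the GC box, was found in 62.3% of members and 68.8% of other genes, TATAAA in 11.5% and 8.45%, and the E-box CACGTG in 9.84% and 11.8%, each on both strands. Among members that rose, fell or were not called, CCGGAAG was found in 2 of 5, 4 of 10 and 19 of 46, and GGGCGG in 4, 6 and 28 of them. TATAAA was found in 2 of 5, 1 of 10 and 4 of 46, and CACGTG in 0, 1 and 5. The numbers of matched members that rose or fell are small, and no difference between these groups was tested. None of these motifs contains another, and a match is a description of letters in the window.

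The genes around the family were taken from lists of known roles. Each count of the main analysis is set beside the 18.3% of all genes tested that rose and the 16.1% that fell. Counts under alternatives have another background. With 1 library left out, 11.6% to 21.7% of all genes rose and 10.3% to 18.2% fell. These shares were 13.8% and 19.7% with library totals as the scaling, and 22.4% and 15.9% after correction for length and GC content. Of the ribosomal proteins with other names, Fau, Rack1 and Rpl36al were not called in the main analysis. Among 25 other mRNAs with a TOP motif 8 rose (32.0%) and 2 fell (8.0%), with a median log2 fold change of 0.08. With 1 library left out 6 to 10 rose and 1 or 2 fell, and after correction for length and GC content 14 rose and 1 fell. They include the initiation factor subunit Eif2s3x (0.41), the poly(A)-binding protein Pabpc1 (0.30) and the prefoldin subunit Pfdn5 (-0.36).

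Of 112 factors of ribosomal RNA processing and ribosome assembly 28 rose (25.0%) and 4 fell (3.57%), with a median log2 fold change of 0.10. The nucleolar helicase Ddx21 rose from 5745, 6015 and 6065 to 8413, 7850 and 8265 normalized counts (log2 fold change 0.46, limma adjusted p = 7.52e-05), the nucleolar GTPase Gnl3l by 0.35 and Surf6 by 0.38 on the log2 scale. Without CAF_CM replicate 2 the list had 55 higher and 4 lower (all genes 19.2% and 17.2%). Without control replicate 1 it had 14 and 2 (all genes 11.6% and 10.3%). Without control replicate 2 it had 18 and 2 (all genes 12.2% and 10.6%), and without control replicate 3 it had 16 and 1 (all genes 12.9% and 10.7%). Without CAF_CM replicate 1 it had 28 and 11 (all genes 21.7% and 18.2%), and without CAF_CM replicate 3 it had 18 and 3 (all genes 14.3% and 12.9%). With library totals as the scaling it had 18 and 10 (all genes 13.8% and 19.7%).

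Of 19 dedicated chaperones of ribosomal proteins and importins 9 rose (47.4%) and none fell, with a median log2 fold change of 0.17. With 1 library left out 6 to 11 rose, and none fell except for 2 without CAF_CM replicate 1. The import receptors Tnpo1 (log2 fold change 0.61), Ipo7 (0.49) and Kpnb1 (0.38) led them. Tnpo1 had 4861, 4990 and 5117 normalized counts in control and 7281, 7680 and 7919 in CAF_CM, with no overlap (limma adjusted p = 1.87e-05). Importins carry many other cargoes besides ribosomal proteins.

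Of 15 genes of RNA polymerase I, which makes ribosomal RNA, 4 rose (26.7%) and 2 fell (13.3%), among them Rrn3 (log2 fold change 0.25), Polr1b (0.26) and Taf1d (-0.46), and Polr1b was not called without control replicate 2 (limma adjusted p = 0.0605). In this list 2, 1 and 2 rose and 1 fell without control replicates 1, 2 and 3, and 6, 4 and 2 rose and 2, 1 and 1 fell without CAF_CM replicates 1, 2 and 3. In the machinery that transcribes the 5S ribosomal RNA genes 7 of 21 rose (33.3%) and 2 fell (9.52%), including Gtf3c4 (0.49), Polr3b (0.32) and Brf1 (-0.35). Without control replicates 1, 2 and 3 the number that rose was 4, 3 and 3 and 1 fell, without CAF_CM replicate 3 it was 6 and 1 fell, and with library totals as the scaling 4 rose and 2 fell. Of 30 genes of mTORC1 and TOP control 9 rose (30%) and 4 fell (13.3%), including Larp4 (0.48), the translation repressor Eif4ebp2 (0.38) and the kinase gene Rps6ka3 (0.42). Without control replicate 1, 5 rose and 4 fell, and with each of the other libraries left out 6 to 12 rose and 3 or 4 fell.

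In the MYC network, which drives ribosome production in many tumours, 4 of 11 rose (36.4%) and 2 fell (18.2%). With 1 library left out 3 to 5 rose and 0 to 2 fell, and none fell without control replicate 1. The MYC partner Max (log2 fold change 0.33), Mxd4 (0.27) and Mycl (0.49) rose. Myc itself fell, from 2741, 2674 and 2811 to 2516, 2023 and 2485 normalized counts (log2 fold change -0.23, limma adjusted p = 0.0324). The Myc call was lost without control replicates 1, 2 or 3 (0.0974, 0.0732 and 0.113) and after correction for length and GC content (0.223).

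The mitochondrial ribosomal proteins, the counterpart of the family in the organelle, had 3 of 77 members higher (3.90%) and 9 lower (11.7%), with a median log2 fold change of -0.04. Both shares were below those of all genes in the main analysis. The share lower was above that of all genes without CAF_CM replicate 1 and with library totals. Mrpl33 (log2 fold change -0.50) and Mrpl14 (-0.32) fell and Mrpl13 (0.34) rose. Without CAF_CM replicate 1 the counts were 3 and 19 (all genes 21.7% and 18.2%), and without CAF_CM replicate 2 they were 5 and 6 (19.2% and 17.2%). Without control replicate 1 they were 2 and 2 (11.6% and 10.3%), and without control replicate 2 also 2 and 2 (12.2% and 10.6%). Without control replicate 3 they were 2 and 6 (12.9% and 10.7%), and without CAF_CM replicate 3 also 2 and 6 (14.3% and 12.9%). With library totals as the scaling they were 2 and 16 (13.8% and 19.7%), and after correction for length and GC content 10 and 8 (22.4% and 15.9%). Over the 6 libraries, the 5 other genes whose log2 profile was closest to the mean profile of the cytosolic members had a Pearson r between 0.987 and 0.995, and 1 of them was a mitochondrial ribosomal protein gene, 1 an assembly factor and 3 in no list.

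**Figure D5:**
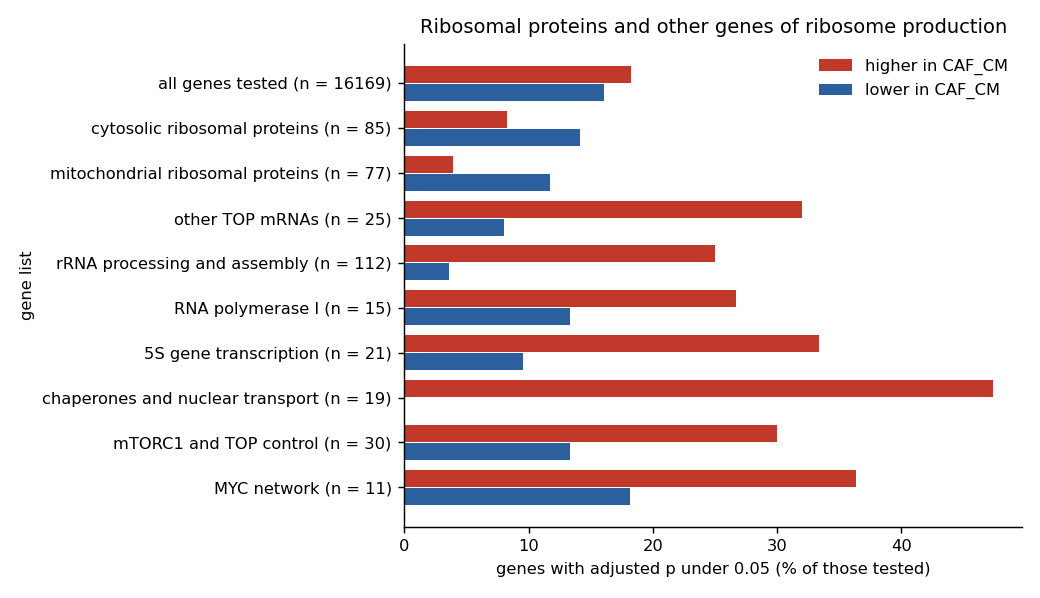
Share of genes called higher and lower (x axis, percent of genes tested) for the cytosolic ribosomal proteins, the related lists and all genes tested (y axis), with the number of genes in each list as n. The cytosolic members, at 8.24% higher and 14.1% lower, lie below the shares of 18.3% and 16.1% over all genes, while the assembly factors have 25.0% higher and 3.57% lower.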

How the data were processed

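Total RNA of 3 control and 3 CAF_CM samples was sequenced from TruSeq libraries, per the labels' protocols. FastQC, DESeq2 and hg19 are named in the submitters' processing notes, while the gene symbols are of mouse. Aligner, counter and mouse build: not given in the sources used here. The deposited table holds a signal, read counts divided by 1 factor per library: in every library 100% of the values were whole multiples of the worth of 1 read, within 0.001 of a read. No row has fewer than 10 reads in total over the 6 libraries. The 168 of 20764 rows without a symbol, with 0.153% to 0.261% of reads, were left out, and 0 columns of other samples were present.

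Values were tested with limma 3.58.1 (R 4.3.3), with a variance trend, on log2(value + 1), for genes with at least 10 normalized counts in at least 3 libraries. P-values were adjusted by Benjamini-Hochberg over all 16169 genes with a threshold of 0.05. Fold changes on this scale understate changes of low genes. On the recovered reads edgeR 4.0.16 with TMM called 2888 genes higher and 2682 lower, and DESeq2 1.42.0 called 2452 and 2099. Other alternatives changed scaling, pseudocount, filter, weights, replicate block, length and GC content, pseudogene rows and single libraries. The scripts were tested on simulated data. Coding and transcript lengths came from GENCODE vM21 and promoter windows from RefSeq on GRCm38.p6. Both were joined by symbol.

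The members and the gene lists were chosen with earlier results of these data known. Named members are the 10 largest rises and falls among called members without overlap, the 3 highest per kilobase, the stalk, 5S and paralog genes, the 2 on either side of the threshold, and up to 3 called genes per related list. Some items the rule names are not reported here. Rps27, Myc and the members named in the sections on pseudogenes, length and the mRNA channel were added after their values were seen.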

Additional observations from a re-analysis of the deposited data

How the results depend on the processing

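Over 20 alternatives, 7 of the 19 called members kept their call under all of them (Rplp0, Rps2, Rpsa, Rps27l, Rpl10a, Rpl35a and Rps24), and no named gene changed direction past the threshold. Members higher and lower numbered 7 and 12. They were 4 and 17 with library totals as the scaling (all genes 13.8% and 19.7%). After correction for length and GC content they were 21 and 7 (all genes 22.4% and 15.9%). They were 10 and 10 with scaling to the member median, an alternative chosen after seeing the data. Leaving out 1 library at a time gave 3 to 13 higher and 6 to 21 lower. Over all genes the same omissions gave 1868 to 3509 higher and 1659 to 2943 lower. In the related lists together, 71 genes were higher and 26 lower, or 41 to 107 and 13 to 45 with 1 library left out. With library totals 41 were lower. For these pooled counts no share was worked out, so they are not set against all genes. With pseudogene rows added, the share of normalized counts was 4.59% in control and 4.49% in CAF_CM, since more rows were summed.

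The labels number the libraries 1 to 3 in each group but do not say that the numbers pair them. Deviations of same-numbered libraries correlated at 0.0703, 0.0291 and 0.0305, under the 0.1 set for pairing, although each library correlated best with its own number, a hint from the data and not from the design. With the replicate number as a block, 7 members were higher and 12 lower, and over all genes 3166 and 2755. With 3 libraries per group, the 95% interval reached past 1.2-fold for 7 of the 66 members not called.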
